A study of Homo sapiens with 8 samples.

Results

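Golgi glycosyltransferases are the membrane-bound enzymes that build the sugar chains of secreted and surface proteins and of glycolipids, and 81 of the 18404 genes measured here belonged to this set. Members were taken by gene symbol: those named GALNT, B3GNT, B4GALT, B3GALT, ST3GAL, ST6GAL, ST6GALNAC, ST8SIA, FUT, MGAT or GCNT followed by a number. The rule reads no values, but it was chosen with earlier results of these data known. RefSeq lists 78 of the 81 as protein-coding; B3GALT5-AS1 is an antisense RNA, and GCNT7 and MGAT4EP are transcribed pseudogenes. The cells were HepG2, an established human liver tumour line that keeps many hepatocyte functions, so the results describe this line rather than normal hepatocytes. Of 8 cultures, 4 received 0.5 mM hydrogen peroxide (H2O2) in medium for 60 minutes and 4 received medium without it; all were washed and kept for 5 days before they were examined for senescence, and the labels give no other time for the RNA. The comparison asked which of these enzymes differed in transcript level between cultures made senescent by the oxidant and untreated ones. All values are log2 expression per probe set on single-channel whole-transcript arrays, a difference is the mean of treated minus that of untreated cultures, given ± its SE, and n = 4 arrays per group throughout.

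Sugar chains are made in the Golgi in a fixed order of roles. Polypeptide GalNAc transferases (GALNT) start mucin-type O-glycans on serine or threonine, and GCNT enzymes branch their cores. MGAT enzymes add the N-acetylglucosamine antennae of N-glycans, B4GALT, B3GALT and B3GNT enzymes lengthen chains with galactose and N-acetylglucosamine, and sialyltransferases (ST3GAL, ST6GAL, ST6GALNAC, ST8SIA) and fucosyltransferases (FUT) add the capping or core sugars. Hepatocytes secrete most plasma glycoproteins, whose N-glycans commonly end in sialic acid, and altered branching and core fucose are well known from liver tumours.

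Transcript levels of the family moved in both directions, with the largest changes upward. GCNT3, which makes core 2, core 4 and I branches, was 4.26-fold higher in treated cells, FUT8, the core fucosyltransferase of N-glycans, 2.39-fold, GALNT10 2.26-fold and ST6GALNAC2 2.03-fold. The largest falls were those of the sialyltransferases ST3GAL1 (1.67-fold lower) and ST3GAL6 (1.51-fold lower) and of the branching enzyme MGAT4A (1.44-fold lower). With limma and Benjamini-Hochberg adjustment over all genes, 18 of the 81 members were higher at an adjusted p under 0.05, against 19.2% of all genes, and 12 were lower, against 14.8%. These counts are 22.2% and 14.8% of the members, which is near the background of the series, and the median difference was -0.04 for the members and -0.02 for all genes. Rises of at least 2-fold were called for 4 members (4.94%, against 1.88% of all genes) and falls of that size for 0 members (1.12% of all genes), the largest fall of any member, called or not, being that of ST3GAL1. Together 30 members were called (37.0%, against 34.0% of all genes). At an unadjusted p under 0.05 in limma 22 of the 81 members were higher and 16 lower, against 4152 and 3542 of the 18404 genes. The values of both groups did not overlap for 29 members, or 35.8%, against 33.7% of all genes. Of these 29 members 27 were called, against 5583 of the 6201 genes without overlap. In such bulk RNA, fewer expressing cells and less RNA per cell cannot be told apart.

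**Figure D1:**
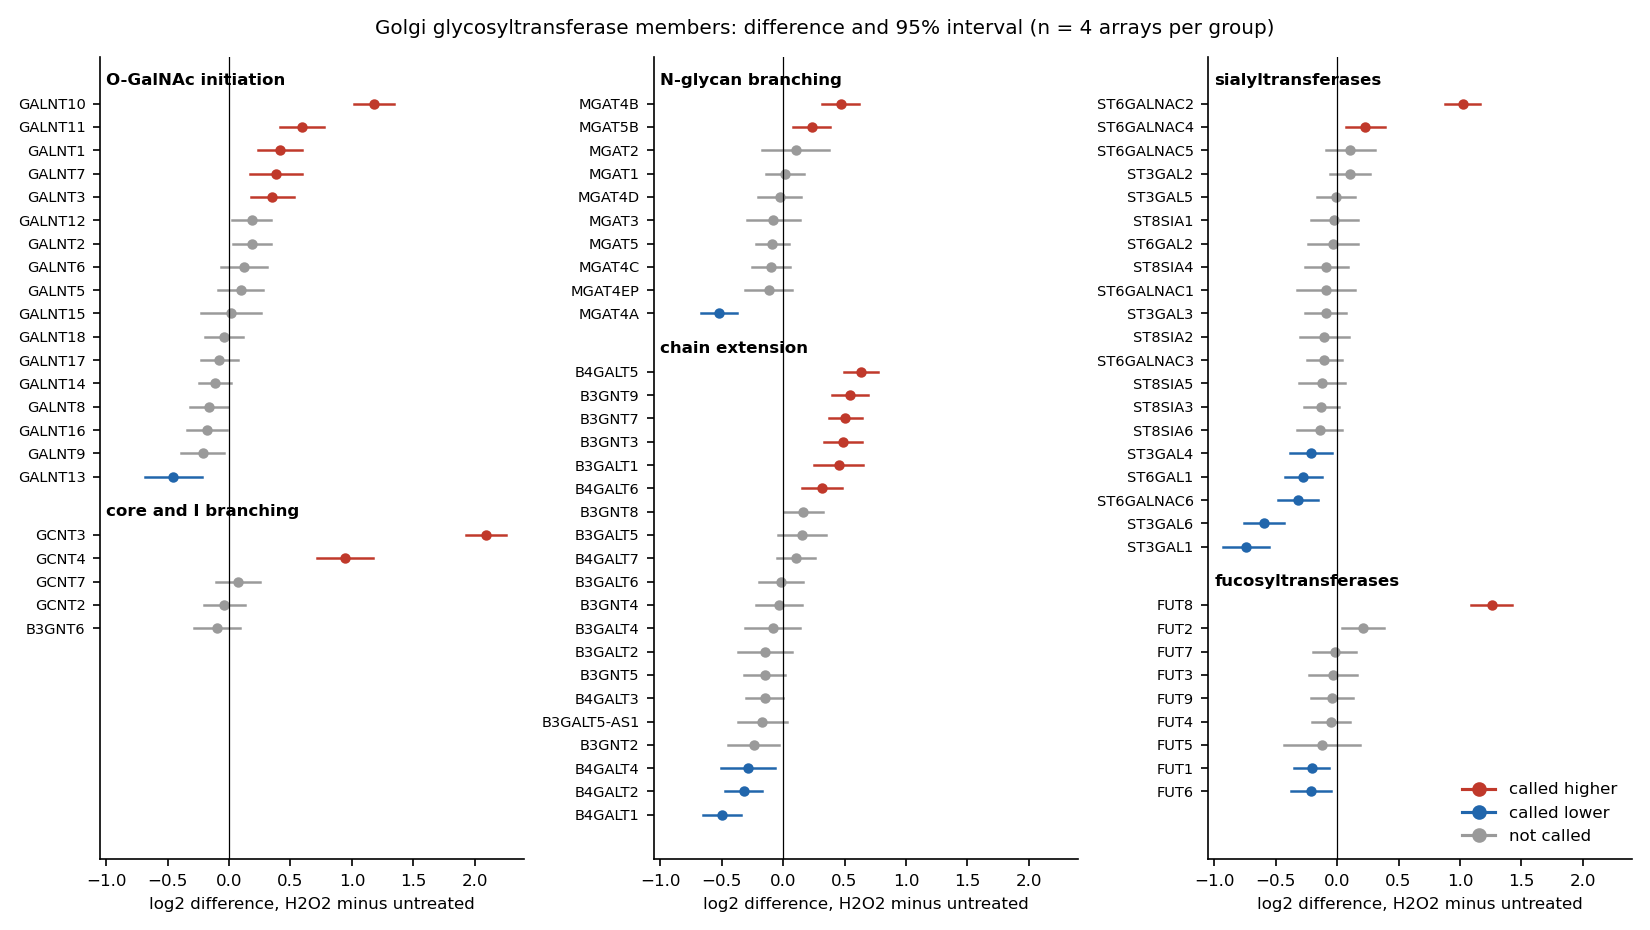
Log2 difference (H2O2 minus untreated, horizontal axis) of each of the 81 members, ordered by size within 6 enzyme classes; points are estimates, bars are 95% intervals from limma with n = 4 arrays per group, and colour marks the call at an adjusted p under 0.05. GCNT3 at 2.09 lies farthest right and ST3GAL1 at -0.74 farthest left, and most intervals of the 51 uncalled members cross 0.

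Genes with known roles in cell cycle arrest were read first. CDKN1A, the p21 cell cycle inhibitor, was higher by 2.36 ± 0.067 and the proliferation marker MKI67 lower by 1.32 on the log2 scale. Array medians lay between 6.85 and 6.93. Hepatocyte markers were bright in both groups: the 7 with a value, ALB and AFP among them, had group means of 10.69 to 12.87, with 4 lower and 1 higher after H2O2 and a summed linear level of 31134 to 32254 in untreated and 26049 to 29627 in treated cultures. Of 8 endothelial markers 0 were higher and 1 lower, with group means of 5.13 to 6.92. Macrophage and leukocyte markers gave 1 of 8 higher and 0 lower (means of 4.09 to 7.53), stellate cell and fibroblast markers 2 of 8 higher and 1 lower, and biliary and progenitor markers 2 of 7 higher and 0 lower. Of the stellate cell and fibroblast list, ACTA2 rose by 1.50 ± 0.072 and COL1A1 by 0.41 ± 0.076, PDGFRB fell by 1.15 on the log2 scale, and COL1A2, COL3A1, LUM, DCN and DES were not called, at -0.12 to -0.01. Its summed linear level was 1889 to 2068 in untreated and 3540 to 4068 in treated cultures, and ACTA2, at means of 10.05 and 11.55, was its brightest member. Of the biliary and progenitor list, KRT19 rose by 1.81 ± 0.070 and CD24 by 2.01 ± 0.19, and KRT7, EPCAM, SOX9, CFTR and PROM1 were not called, at -0.11 to 0.21. Its sum was 4998 to 5888 in untreated and 8373 to 9207 in treated cultures. Only 2 genes of each list were called higher, so the sums do not describe whole lists. The part of these markers in the differences of the glycosyltransferases was not tested.

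Promoter sequences are shown for 4 rises of over 0.9 on the log2 scale and for 2 falls, because a reader may want to compare the starts of genes that moved together or in opposite directions. Of the 81 members, 60 were matched by gene identifier to the RefSeq promoter table (build GRCh38.p14). ST6GALNAC2 and MGAT4A were not among these 60, and ST3GAL1, the largest fall, is not shown. The 6 windows are therefore not simply those of the largest changes. Each line gives the 250 bases before the most upstream listed start, 5′ to 3′ on the gene's strand, in lower case with every match to a searched motif in capitals.
GCNT3, chr15:59611533-59611782, plus strand: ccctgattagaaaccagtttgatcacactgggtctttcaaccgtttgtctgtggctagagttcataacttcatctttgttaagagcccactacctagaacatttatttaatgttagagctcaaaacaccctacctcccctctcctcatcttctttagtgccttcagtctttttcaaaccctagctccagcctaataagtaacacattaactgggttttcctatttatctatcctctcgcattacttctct
GCNT4, chr5:75052559-75052808, minus strand: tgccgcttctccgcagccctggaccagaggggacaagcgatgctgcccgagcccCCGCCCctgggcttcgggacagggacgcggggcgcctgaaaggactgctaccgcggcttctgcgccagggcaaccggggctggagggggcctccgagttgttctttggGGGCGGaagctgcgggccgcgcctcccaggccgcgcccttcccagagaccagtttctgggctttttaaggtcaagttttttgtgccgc
FUT8, chr14:65410342-65410591, plus strand: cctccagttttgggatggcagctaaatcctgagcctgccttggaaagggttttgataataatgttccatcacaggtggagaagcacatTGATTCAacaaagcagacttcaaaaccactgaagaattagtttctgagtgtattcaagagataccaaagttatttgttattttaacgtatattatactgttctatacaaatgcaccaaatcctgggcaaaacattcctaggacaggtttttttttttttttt
GALNT10, chr5:154190483-154190732, plus strand: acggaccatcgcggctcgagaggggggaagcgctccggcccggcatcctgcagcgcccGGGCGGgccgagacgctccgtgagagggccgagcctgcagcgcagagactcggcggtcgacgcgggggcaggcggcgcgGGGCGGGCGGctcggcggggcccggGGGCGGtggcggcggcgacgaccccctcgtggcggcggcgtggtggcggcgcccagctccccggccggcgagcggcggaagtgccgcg
ST3GAL6, chr3:98732012-98732261, plus strand: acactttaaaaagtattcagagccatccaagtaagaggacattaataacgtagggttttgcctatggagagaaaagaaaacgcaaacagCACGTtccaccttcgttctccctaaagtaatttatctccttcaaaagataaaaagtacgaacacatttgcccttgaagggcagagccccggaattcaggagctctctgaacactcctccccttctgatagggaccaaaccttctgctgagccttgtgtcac
B4GALT1, chr9:33167337-33167586, minus strand: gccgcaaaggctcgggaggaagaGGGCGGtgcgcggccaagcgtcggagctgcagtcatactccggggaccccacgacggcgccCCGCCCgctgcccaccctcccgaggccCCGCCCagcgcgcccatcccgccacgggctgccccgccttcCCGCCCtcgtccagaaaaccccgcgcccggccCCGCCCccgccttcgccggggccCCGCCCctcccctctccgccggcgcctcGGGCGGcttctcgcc
Searched on both strands were the GC box (GGGCGG), the CCAAT box (CCAAT), the TATA box (TATAAA), the AP-1 site (TGANTCA), the HIF core (ACGTG), the E-box (CACGTG, which always holds the HIF core), the antioxidant response element (TGACNNNGC) and the p53 decamer. These windows were unlike each other. GALNT10 had 4 GC boxes in a window of 82.4% G and C, and B4GALT1, which fell, had 7 in a window of 80%. GCNT3, the largest rise, had 0 matches to any motif in a window of 40.4% G and C, while its relative GCNT4 had 2 GC boxes at 68.4%. FUT8 had 1 AP-1 site and ST3GAL6 1 HIF core, and RefSeq lists 3 and 4 starts for these genes, so the start used in HepG2 cells may be another.

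Across the 60 matched members a GC box stood in 39 windows (65.0%), against 42.2% of the windows of 27305 genes, and their median share of G and C was 66.6% against 57.6%. A TATA box stood in 1 (1.67%, against 11.2% of all genes). A HIF core stood in 26.7% of the member windows (18.6% of all genes), an E-box in 10% (6.46%) and an AP-1 site in 6.67% (6.57%). A CCAAT box stood in 28.3% (33.0%), an antioxidant response element in 8.33% (11.1%) and a p53 decamer in 3.33% (5.50%). The 27305 genes were not limited to those measured on the arrays and were not split into protein-coding and other genes. How the members differ from measured protein-coding genes alone was not tested. Of the 15 matched members called higher and the 10 called lower, a GC box was found in 9 and 5, a CCAAT box in 5 and 1, a TATA box in 0 and 0, an AP-1 site in 2 and 0, a HIF core in 1 and 3, an E-box in 0 and 2, an antioxidant response element in 2 and 2 and a p53 decamer in 1 and 0. A match is a string of letters in this window and was not tested for binding.

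**Figure D2:**
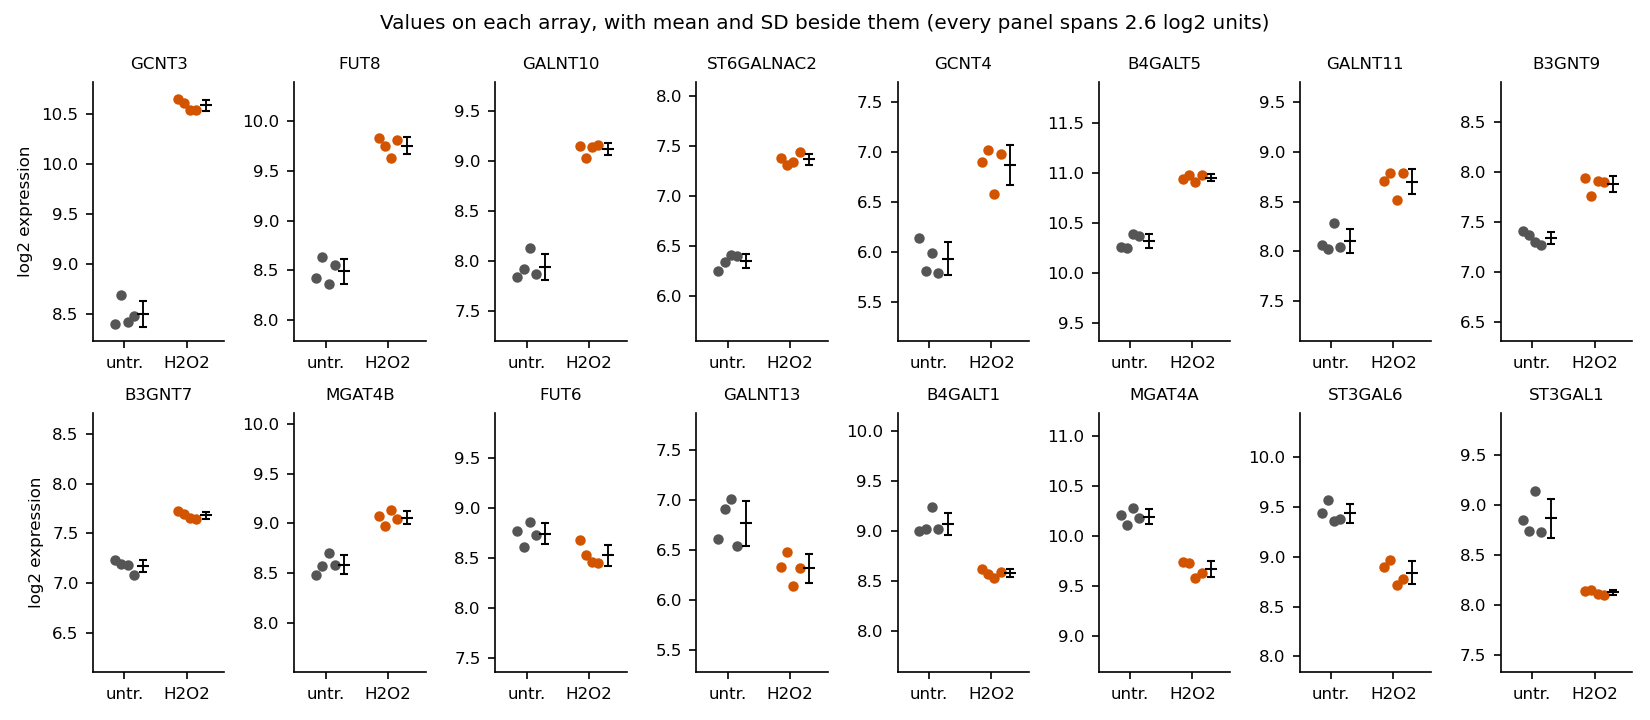
Log2 expression on each array (vertical axis, the same span in every panel) of 16 members in untreated (grey) and H2O2 (orange) cultures, with the mean and SD of 4 arrays beside the points. The groups do not overlap in any panel but that of FUT6, and the panels of GCNT3 and FUT8 show the widest gaps.

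Enzymes that start O-glycans were called higher in 5 of 17 cases and lower in 1, with a median difference of 0.09; the 35.3% called in either direction is near the 34.0% of all genes. GALNT10, which prefers peptides that already carry GalNAc, had values of 7.84, 7.92, 8.13 and 7.87 in untreated replicates 1 to 4 and of 9.16, 9.03, 9.14 and 9.16 in H2O2 replicates 1 to 4. Every treated culture lay above every untreated one, and the difference was 1.18 ± 0.076 (limma, adjusted p = 5.69e-08). GALNT11, known for its action on Notch1, read 8.06, 8.02, 8.29 and 8.05 without and 8.71, 8.79, 8.52 and 8.78 with H2O2. Replicate 3 was the highest of the untreated and the lowest of the treated values, yet the groups stayed apart, with a difference of 0.59 ± 0.084 (limma, adjusted p = 7.73e-05). GALNT1, a widely expressed member, rose by 0.42 ± 0.083, GALNT7, another enzyme that follows earlier GalNAc additions, by 0.38 ± 0.098, and GALNT3, which protects the hormone FGF23 from cleavage, by 0.35 ± 0.080. GALNT7 and GALNT3 lay under the median of all arrays, 6.89, in both groups, a level not shown to be above background on these arrays.

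GALNT13, an enzyme best known from nervous tissue, was the member of this class that fell. It read 6.62, 6.91, 7.01 and 6.54 in untreated and 6.33, 6.48, 6.14 and 6.32 in treated cultures, so the untreated values were the more scattered and the groups did not overlap. The difference was -0.45 ± 0.11 (limma, adjusted p = 0.00445), under the array median in both groups. The other 11, GALNT2, GALNT5, GALNT6, GALNT8, GALNT9, GALNT12, GALNT14, GALNT15, GALNT16, GALNT17 and GALNT18, were not called, with differences of -0.22 to 0.19, 95% intervals reaching from -0.39 to 0.34, and 9 of them under the array median in both groups. GALNT2, whose targets include regulators of plasma lipids, came near the threshold at 0.19 ± 0.072 (limma, adjusted p = 0.0625), and was called without untreated replicate 3, at 0.24. Likewise GALNT9 (-0.22) was called without H2O2 replicate 3, at -0.29, GALNT8 (-0.17) without the same array, at -0.22, GALNT16 (-0.18) without untreated replicate 3, at -0.22, and GALNT12 (0.19) without H2O2 replicate 4, at 0.24.

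The branching of O-glycan cores and lactosamine chains was represented by 5 genes, with a median of 0.07. Of these, 2 rose (40%, against 19.2% of all genes) and 0 fell (against 14.8%). Both counts were the same at an unadjusted p under 0.05 in limma. GCNT3 read 8.40, 8.69, 8.42 and 8.48 in untreated and 10.65, 10.62, 10.54 and 10.54 in H2O2 cultures. The treated values spanned a narrow range far above all untreated ones, and the difference of 2.09 ± 0.076 (limma, adjusted p = 2.36e-10) had a 95% interval of 1.93 to 2.25. GCNT4, which makes core 2 branches, read 6.14, 5.80, 5.98 and 5.79 without and 6.90, 7.02, 6.58 and 6.98 with treatment. Its groups did not overlap either, and the difference was 0.94 ± 0.11 (limma, adjusted p = 9.84e-06). GCNT4 lay near the array median when treated and under it in both groups by its means, 5.93 and 6.87. GCNT2, the I-branching enzyme of the blood group I antigen (-0.04 ± 0.076), B3GNT6, the core 3 synthase (-0.10 ± 0.087), and the pseudogene GCNT7 (0.07 ± 0.085) were not called.

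N-glycan branching went both ways within a pair of related enzymes. MGAT4A and MGAT4B add the same antenna, a beta-1,4-linked N-acetylglucosamine, and MGAT4A fell while MGAT4B rose. MGAT4A read 10.21, 10.11, 10.29 and 10.18 in untreated and 9.74, 9.73, 9.58 and 9.63 in treated cultures. All treated values lay under all untreated ones, with a difference of -0.52 ± 0.069 and a 95% interval of -0.67 to -0.37 (limma, adjusted p = 4.17e-05). MGAT4B read 8.48, 8.58, 8.71 and 8.58 and then 9.07, 8.98, 9.13 and 9.04. Here every treated value was the higher, with a difference of 0.47 ± 0.070 and an interval of 0.32 to 0.62 (limma, adjusted p = 0.00012). Each probe set has its own response, so these values show opposite changes and not the balance of both transcripts. MGAT5B, which acts on O-mannose glycans of the brain, rose by 0.23 ± 0.069 (limma, adjusted p = 0.0182), a call lost without untreated replicate 1, at 0.21.

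Among the 10 genes of N-glycan branching 2 rose (20%, near the 19.2% of all genes) and 1 fell (10%, against 14.8%). The other 7 were not called, at differences of -0.12 to 0.10. They include MGAT1 (0.01 ± 0.072) and MGAT2 (0.10 ± 0.13), which start the antennae of complex N-glycans, MGAT3, which adds the bisecting residue (-0.08 ± 0.10), and MGAT5, which adds the beta-1,6 antenna (-0.09 ± 0.063). The 95% interval of MGAT5 ran from -0.22 to 0.05 and that of MGAT1 from -0.14 to 0.17, which are the shifts these arrays allow. MGAT4C, MGAT4D and MGAT4EP were not called and lay under the array median in both groups.

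Chain-extending enzymes were called higher in 6 of 20 cases (30%, against 19.2% of all genes) and lower in 3 (15%, against 14.8%). Their median was -0.03, against -0.02 for all genes. Within the B4GALT enzymes, which transfer galactose in beta-1,4 linkage, 2 of 7 rose (28.6%) and 3 fell (42.9%), against 19.2% and 14.8% of all genes. B4GALT5, the main lactosylceramide synthase of many cells, read 10.26, 10.25, 10.39 and 10.37 in untreated and 10.94, 10.98, 10.91 and 10.98 in treated cultures. The treated values were tightly grouped above the untreated ones, with a difference of 0.63 ± 0.064 (limma, adjusted p = 4.11e-06). B4GALT6, which makes the same glycolipid, rose by 0.32 ± 0.075 (limma, adjusted p = 0.00439).

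B4GALT1, the enzyme that galactosylates most N-glycan antennae and also the catalytic part of lactose synthase, went the other way. It read 9.002, 9.023, 9.243 and 9.021 without and 8.623, 8.572, 8.528 and 8.588 with H2O2. Untreated replicate 3 stood above the other untreated cultures, and the groups did not overlap, with a difference of -0.49 ± 0.071 (limma, adjusted p = 9.28e-05). B4GALT2, a close relative, fell by 0.32 on the log2 scale (SE 0.069, limma adjusted p = 0.00241). B4GALT4 gave -0.28 ± 0.10 (limma, adjusted p = 0.0442), with overlapping groups. That call was lost without untreated replicate 1 (-0.25), 2 (-0.30) or 3 (-0.26) and without H2O2 replicate 1 (-0.31), 3 (-0.18) or 4 (-0.30). B4GALT3 (-0.15 ± 0.070) and B4GALT7, which makes the linker of proteoglycans (0.10 ± 0.071), were not called.

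Of the 8 B3GNT genes, which encode enzymes adding N-acetylglucosamine in beta-1,3 linkage, 3 rose (37.5%, against 19.2% of all genes) and 0 fell (against 14.8%). At an unadjusted p under 0.05 in limma, 4 of the 8 were higher and 1 lower, against 4152 and 3542 of the 18404 genes. B3GNT9 read 7.40, 7.37, 7.30 and 7.27 in untreated and 7.94, 7.76, 7.91 and 7.90 in treated cultures, a difference of 0.54 ± 0.067 (limma, adjusted p = 2.52e-05). B3GNT7, known for keratan sulfate chains, read 7.23, 7.19, 7.19 and 7.09 and then 7.73, 7.70, 7.66 and 7.65, a difference of 0.51 ± 0.063 (limma, adjusted p = 2.61e-05). In both genes the groups were separate and the values within a group lay close together. B3GNT3, which extends core 1 O-glycans, rose by 0.49 ± 0.071 (limma, adjusted p = 9.79e-05). B3GNT2, the main polylactosamine synthase, gave -0.24 ± 0.096 (limma, adjusted p = 0.0737), and was called without untreated replicate 4 (-0.30) or H2O2 replicate 2 (-0.30). B3GNT4, B3GNT5 and B3GNT8 were not called, B3GNT8 (0.16) being called without H2O2 replicate 2, at 0.21.

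B3GALT1, which adds beta-1,3-linked galactose, was the member of the 6 B3GALT genes that changed (16.7% called higher, against 19.2% of all genes). It rose by 0.45 ± 0.091 (limma, adjusted p = 0.00146) from a mean of 5.11, under the array median in both groups. B3GALT2, B3GALT4, a ganglioside enzyme, B3GALT5, which makes type 1 chains, B3GALT6, of the proteoglycan linker, and the antisense RNA B3GALT5-AS1 were not called. B3GALT5-AS1 (-0.17) was called without untreated replicate 3, at -0.25.

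Of 20 sialyltransferases, 5 were lower (25%, against 14.8% of all genes) and 2 higher (10%, against 19.2%), with a median of -0.10. Differences below 0 were found for 16 of the 20, of which 11 were not called, and for 10110 of the 18404 genes. ST3GAL1, which caps the core 1 O-glycan with sialic acid, read 8.85, 8.74, 9.14 and 8.73 in untreated and 8.14, 8.15, 8.11 and 8.10 in treated cultures. Treated values were nearly equal to each other and all under the untreated ones, with a difference of -0.74 ± 0.088 (limma, adjusted p = 1.60e-05). ST3GAL6, which sialylates lactosamine ends and takes part in sialyl Lewis x synthesis, read 9.43, 9.57, 9.36 and 9.38 and then 8.89, 8.97, 8.71 and 8.78. Again the groups were apart, with a difference of -0.60 ± 0.077 (limma, adjusted p = 3.57e-05). ST6GAL1, the enzyme that puts alpha-2,6-linked sialic acid on the N-glycans of plasma proteins, was lower by a smaller amount, -0.27 ± 0.070 (limma, adjusted p = 0.0073), from 11.43 ± 0.088 to 11.16 ± 0.074 (SD).

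ST6GALNAC2, which adds alpha-2,6-linked sialic acid to the GalNAc of O-glycans, rose while most of the class lay below 0. It read 6.25, 6.34, 6.41 and 6.40 in untreated and 7.38, 7.32, 7.35 and 7.44 in treated cultures. No value of one group came near those of the other, and the difference was 1.02 ± 0.066 (limma, adjusted p = 5.81e-08), from a mean under the array median. ST6GALNAC4, which acts on O-glycans that already carry a sialic acid, gave 0.23 ± 0.073 (limma, adjusted p = 0.0269). This call was lost without untreated replicate 1 (0.20) and without H2O2 replicate 1 (0.17). It was also lost with the replicate number as a block and with probe sets averaged. The other probe set of ST6GALNAC4 was not called, at 0.23 ± 0.12 (limma over all probe sets with a symbol, adjusted p = 0.161). ST6GALNAC6, a ganglioside enzyme, fell by 0.32 on the log2 scale (SE 0.075, limma adjusted p = 0.00403). Its other probe set gave -0.08 ± 0.092 (limma over all probe sets with a symbol, adjusted p = 0.581), so the probe sets of this gene disagree on the call. ST3GAL4, which acts on lactosamine ends, gave -0.22 ± 0.079 (limma, adjusted p = 0.0498), with overlapping groups, and its call was lost without untreated replicate 1 (-0.21), 2 (-0.17) or 3 (-0.21) and without H2O2 replicate 2 (-0.20), 3 (-0.19) or 4 (-0.21).

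The 13 uncalled sialyltransferases had differences of -0.14 to 0.11, and 11 of them lay under the array median in both groups. All 6 ST8SIA genes, which build polysialic acid and disialylated gangliosides, were among the latter, with 0 called, also at an unadjusted p under 0.05 in limma, and differences of -0.14 to -0.02. ST8SIA1 had another, dimmer probe set that was called lower, at -0.30 ± 0.083 (limma over all probe sets, adjusted p = 0.0127). ST3GAL2, a relative of ST3GAL1 that acts on the same kind of acceptor, was not called at 0.11 ± 0.076, with an interval of -0.06 to 0.27. ST3GAL3 (-0.09), ST3GAL5, the GM3 synthase (-0.01), ST6GAL2 (-0.04), ST6GALNAC1 (-0.09), ST6GALNAC3 (-0.11) and ST6GALNAC5 (0.11) were not called, ST6GALNAC5 being called without untreated replicate 2, at 0.21.

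Fucosyltransferases showed 1 large rise among 9 genes. FUT8 read 8.42, 8.63, 8.36 and 8.56 in untreated and 9.83, 9.74, 9.63 and 9.81 in treated cultures. The lowest treated value lay well above the highest untreated one, and the difference of 1.26 ± 0.078 (limma, adjusted p = 3.95e-08) had an interval of 1.09 to 1.43. FUT6, which makes Lewis-type fucose on plasma proteins in the liver, read 8.78, 8.61, 8.86 and 8.73 and then 8.68, 8.53, 8.46 and 8.45. These groups overlapped, the difference was -0.21 ± 0.077 (limma, adjusted p = 0.0445), and the call was lost without untreated replicate 1 (-0.20), 3 (-0.18) or 4 (-0.22) and without H2O2 replicate 2 (-0.21), 3 (-0.19) or 4 (-0.19). FUT1, which makes the H antigen, gave -0.21 ± 0.064 (limma, adjusted p = 0.0214), and its call was lost without untreated replicate 1 (-0.19) or 4 (-0.19) and without H2O2 replicate 1 (-0.20), 2 (-0.19) or 4 (-0.20).

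FUT3, FUT5 and FUT6 are closely similar in sequence, so probes may not fully keep them apart and their values are uncertain. FUT3 gave -0.03 ± 0.090 and FUT5 -0.12 ± 0.14. FUT2, the secretor enzyme, gave 0.21 ± 0.079 (limma, adjusted p = 0.0575) and was called without untreated replicate 4 (0.27) or H2O2 replicate 2 (0.24). FUT4 and FUT7, the Lewis x enzymes of leukocytes, and FUT9 were not called at -0.05, -0.02 and -0.04. The class had 1 higher (11.1%, against 19.2% of all genes) and 2 lower (22.2%, against 14.8%) of 9. Its median was -0.04, and FUT8 was its member past 2-fold.

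**Figure D3:**
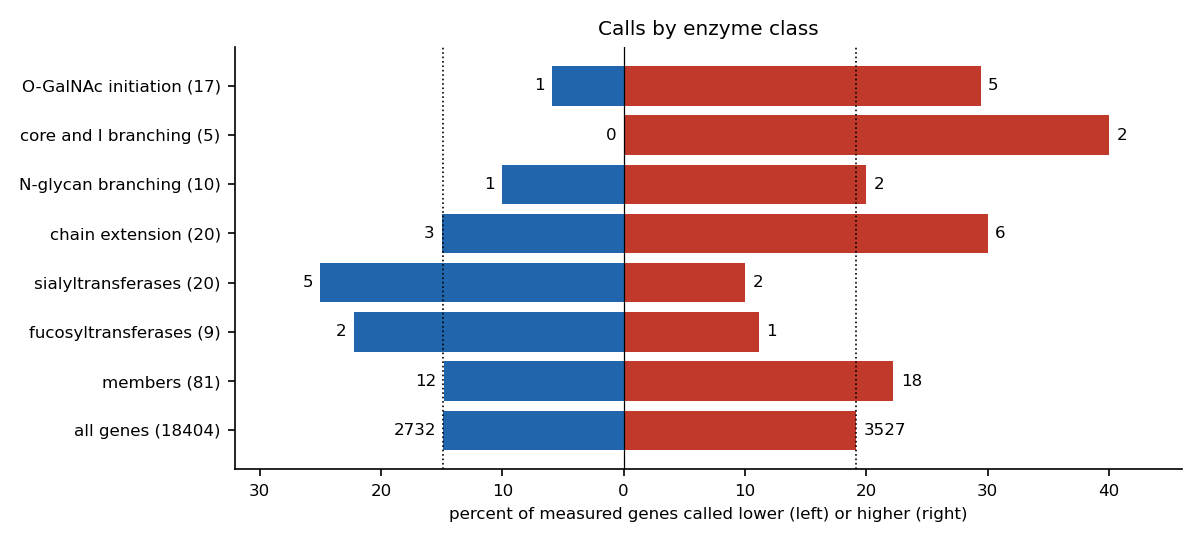
Percent of measured genes called higher (right, red) or lower (left, blue) in each of 6 enzyme classes, in all 81 members and in all 18404 genes; numbers at the bars are counts of genes, numbers in brackets are genes measured, and dotted lines mark the shares over all genes, 19.2% and 14.8%. Sialyltransferases show 5 lower and 2 higher and O-GalNAc initiation 5 higher and 1 lower; classes of 5 to 20 genes make these shares coarse.

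Calls were more frequent among brighter members, as in the whole table. Among the 32 members whose mean over all 8 arrays was at or above the median of all genes, 7.52, 11 were higher and 8 lower, or 59.4% called, against 48.7% of all genes at that level. Among the 49 members below it, 7 were higher and 4 lower, or 22.4%, against 19.3% of all genes. Under the array median in both groups lay 39 members, of which 5 were called, and 6836 of all genes, of which 879 were called, and no test of signal over background could be made from these values.

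**Figure D4:**
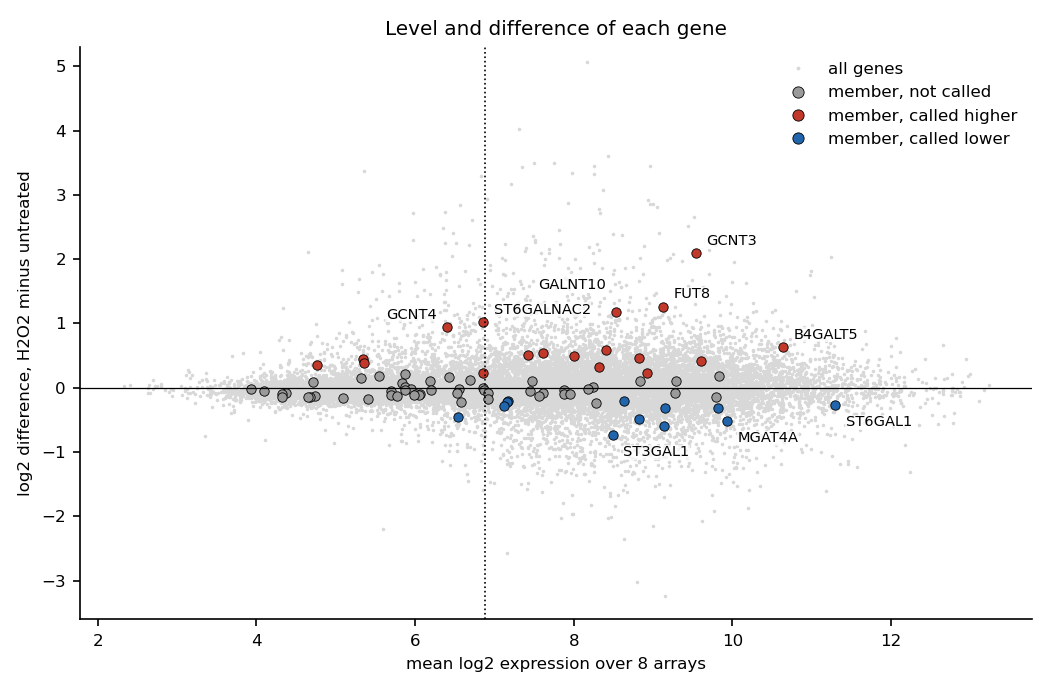
Mean log2 expression over 8 arrays (horizontal axis) against the log2 difference, H2O2 minus untreated (vertical axis), for all 18404 genes (pale grey) and the 81 members (dark grey, not called; red, called higher; blue, called lower); the dotted line is the median of all arrays, 6.89. Members cluster around 0 at the left, and GCNT3 at 2.09 stands above the others.

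Genes that supply, carry or read the same sugars were taken from 9 further lists, also chosen with earlier results of these data known. Enzymes that make nucleotide sugars, the donors of these reactions, gave 11 falls (57.9%, against 14.8% of all genes) and 1 rise (5.26%, against 19.2%) among 19 genes. Their median was -0.21 against -0.02 for all genes. GNE, the enzyme that starts sialic acid synthesis, went from 9.11 ± 0.16 to 8.36 ± 0.12 (SD; difference -0.75 ± 0.090, limma adjusted p = 1.71e-05), and UAP1, which makes UDP-N-acetylglucosamine, fell by 0.64 on the log2 scale. GFUS, which completes GDP-fucose, was the riser, at 0.49 ± 0.078. Transporters that bring these donors or the sulfate donor into the Golgi gave 7 rises (53.8%, against 19.2%) and 1 fall (7.69%, against 14.8%) among 13 genes (median 0.19). SLC35B3, a carrier of the sulfate donor, rose by 0.69 ± 0.10 and SLC35A5 by 0.45 ± 0.091. SLC35A3, a carrier of UDP-N-acetylglucosamine, fell by 0.30 on the log2 scale.

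Further lists held enzymes that sulfate chains, break them down in lysosomes, or attach and trim N-glycans. Glycan sulfotransferases gave 6 rises (42.9%, against 19.2% of all genes) and 0 falls (against 14.8%) among 14 genes. Their median was 0.02, and 1 was lower at an unadjusted p under 0.05 in limma. CHST6, of keratan sulfate synthesis, rose by 1.67 ± 0.087 (limma, adjusted p = 5.83e-09), from 6.77 ± 0.18 to 8.44 ± 0.063 (SD), and GAL3ST4 by 0.84 ± 0.074. Both lay under the array median in untreated cultures, GAL3ST4 at a mean of 6.62. Lysosomal glycosidases and sialidases gave 7 rises (58.3%, against 19.2% of all genes) and 0 falls (against 14.8%) among 12 genes. Their median was 0.30, and 0 were lower at an unadjusted p under 0.05 in limma. HEXA, a hexosaminidase subunit, rose by 0.64 ± 0.068 and CTSA, the protector of galactosidase and sialidase, by 0.48 ± 0.061. The oligosaccharyltransferase and N-glycan trimming list had 4 of 22 higher (18.2%) and 5 lower (22.7%; median 0.02), against 19.2% and 14.8% of all genes. In it STT3B, a catalytic subunit, rose by 0.31 ± 0.064 and the mannosidase MAN2A2 by 0.23 ± 0.063, while MAN1A1, another Golgi mannosidase, fell by 0.40 and MANEA, an endomannosidase, by 0.45 on the log2 scale.

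In the list of the COG complex, which recycles Golgi enzymes, and other structural genes 3 of 22 were higher and 2 lower (median -0.01). These calls are 22.7% of the list, against 34.0% of all genes, while the groups did not overlap for 8 of the 22 (36.4%, against 33.7%). GOLM1, a Golgi membrane protein raised in liver disease, rose by 1.25 ± 0.074 (limma, adjusted p = 2.26e-08) from 6.21 ± 0.034 to 7.46 ± 0.13 (SD), the untreated mean lying under the array median. ATP6V0A2, a proton pump subunit, gave 0.34 ± 0.10, a call lost without untreated replicate 3 (0.30) or 4 (0.28) and without H2O2 replicate 1 (0.31) or 2 (0.26), while COG7 fell by 0.44 and the golgin GOLGA4 by 0.38 on the log2 scale. Glycosyltransferases outside the symbol rule gave 5 rises (19.2%) and 3 falls (11.5%) among 26 genes (median -0.03), near the 19.2% and 14.8% of all genes. POMT2, which starts O-mannose glycans, gave 0.51 ± 0.063 and B4GALNT1, the GM2 synthase, 0.45 ± 0.072. MFNG, a Notch fringe enzyme, gave -0.42 ± 0.12 and B4GALNT4 -0.38 ± 0.073.

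Carriers and readers of the chains included large single changes. Mucins, the proteins richest in O-glycans, gave 3 rises (20%, near the 19.2% of all genes) and 0 falls (against 14.8%) among 15 genes. Their median was -0.03, and 1 was lower at an unadjusted p under 0.05 in limma. MUC13 rose by 1.65 ± 0.10 (limma, adjusted p = 3.75e-08), though its untreated mean of 5.17 and its treated mean of 6.82 both lay under the array median, and MUC15 rose by 0.48 ± 0.094. Galectins and glycan-binding receptors gave 3 rises (15%) and 2 falls (10%) among 20 genes (median -0.06), against 19.2% and 14.8% of all genes. LGALS1, galectin-1, rose by 1.42 ± 0.068 (limma, adjusted p = 2.93e-09) and CD22, a sialic acid-binding lectin known from B cells, by 1.26 ± 0.071, from an untreated mean of 6.18, under the array median. ASGR1, the hepatocyte receptor for galactose-ended glycoproteins, fell by 0.71 and LGALS8, galectin-8, by 0.52 on the log2 scale.

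**Figure D5:**
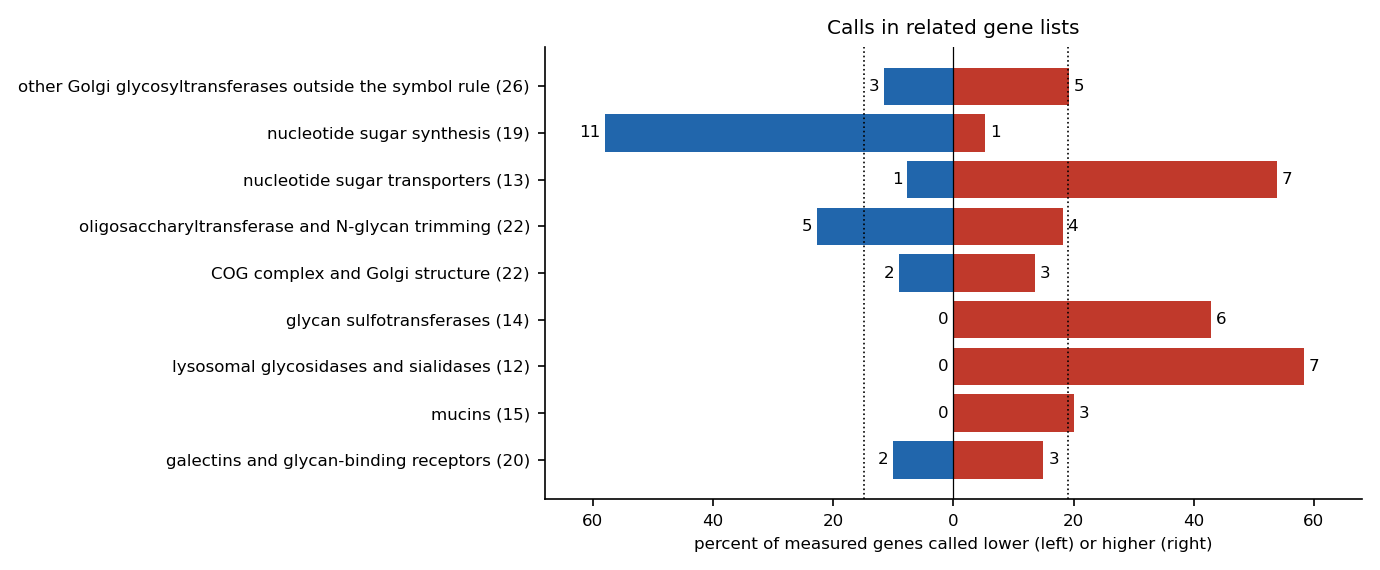
Percent of measured genes called higher (right, red) or lower (left, blue) in 9 related gene lists; numbers at the bars are counts of genes, numbers in brackets are genes measured, and dotted lines mark the shares over all genes, 19.2% and 14.8%. Nucleotide sugar synthesis shows 11 of 19 lower, and the transporters, sulfotransferases and lysosomal glycosidases show 7, 6 and 7 higher.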

How the data were processed

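RNA of 8 HepG2 cultures was labelled with biotin and hybridized to single-channel arrays, per the labels' protocols. The deposited table holds log2 expression values for 32321 probe sets on 8 arrays. The summarization and normalization behind them are not given in the sources used here. Limma is the tool that the submitters' processing notes name, without saying for which step. Platform annotation gave 1 gene symbol to 19158 probe sets, several to 1388 and none to 11775. Entrez identifiers of 19128 were found in RefSeq. For each of the 18404 genes the probe set with the highest mean over all arrays was used. Groups came from the sample labels, and the series design calls the cultures biological replicates.

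One model was fitted over all genes with limma 3.58.1 in R 4.3.3 (1 mean per group, empirical Bayes, Benjamini-Hochberg, call at an adjusted p under 0.05), and tested on simulated data. Tables, promoter windows and figures used Python 3.11.15. Lists are described by counts and medians, with no set test. Members and lists were chosen with earlier results of these data known. All members are named. Arrays are printed for called members with separate groups and a difference of at least 0.5, and for the largest call of each class and direction; each related list adds up to 2 rises and 2 falls. The alternatives were a replicate block, quantile normalization, median centring, leaving out dim genes, averaging probe sets, trend and robust moderation, array weights, and leaving out each array. The number of arrays limits the precision.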

Additional observations from a re-analysis of the deposited data

Results flagged for a closer look

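Among 218 groups of 4 values (109 named genes in 2 groups), 14 had a highest or lowest value that stood apart from the other 3 beyond Dixon's 95% critical value; chance gives about 1 in 20. All 14 were members. Untreated replicate 3 accounted for 6 of them. It was high for GALNT11 (8.29, others 8.02 to 8.06), GALNT2 (9.89, others 9.67 to 9.70), ST3GAL2 (8.96, others 8.71 to 8.75) and B4GALT1 (9.24, others 9.002 to 9.023), and low for B3GALT5 (5.03, others 5.29 to 5.32) and FUT5 (7.22, others 7.72 to 7.81). H2O2 replicate 3 was high for FUT7 (6.78, others 6.45 to 6.48), ST8SIA5 (5.90, others 5.64 to 5.67) and GALNT8 (5.16, others 4.94 to 4.97). GALNT10 was low in H2O2 replicate 2 (9.03, others 9.14 to 9.16), and B4GALT7 was high in H2O2 replicate 1 (9.50, others 9.28 to 9.31). In the untreated group, ST6GALNAC5 was high in replicate 2 (6.44, others 6.02 to 6.07), MGAT2 low in replicate 4 (7.18, others 7.48 to 7.50) and ST8SIA6 high in replicate 1 (4.95, others 4.67 to 4.72).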

How the results depend on the processing

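Of the 30 called members, 24 kept their call in every one of the 15 alternatives in which they were tested, and 0 changed direction; leaving out dim genes removed 11 of the 30 from testing. B4GALT4, FUT1, FUT6, ST3GAL4, ST6GALNAC4 and MGAT5B lost it in at least 1. Of the 51 uncalled members, 12 were called in at least 1 alternative, among them ST8SIA5 and FUT5, called lower only with array weights. The deviations of genes from their group means correlated at -0.07, 0.06, -0.25 and 0.09 between same-numbered arrays. Arrays of different number were not compared, so these values do not show whether the replicate numbers paired the cultures. With the number as a block, 17 members were higher and 8 lower, sialyltransferases had 1 rise and fucosyltransferases 0 falls. Sialyltransferases also had 1 rise with probe sets averaged. With dim genes left out, 12 were higher and 9 lower of 32 tested; core and I branching, N-glycan branching and sialyltransferases had 1 rise each, fucosyltransferases 1 fall and O-GalNAc initiation 0 falls, with fewer genes tested. Quantile normalization gave 2 rises of fucosyltransferases and 2 falls of O-GalNAc initiation, and median centring 1 fall and 2 falls. With array weights, 21 members were higher and 17 lower, the count of all genes called lower was 4111 (2732 without), fucosyltransferases had 2 rises and O-GalNAc initiation 4 falls; the cause was not tested. Leaving out 1 array gave 16 to 20 members higher and 8 to 11 lower, and rises of 1 to 3 sialyltransferases, 1 to 2 fucosyltransferases and 1 to 2 N-glycan branching genes, with falls of 0 to 2 fucosyltransferases and 1 to 3 O-GalNAc initiation genes.

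Signs changed only for uncalled members. Quantile normalization turned ST8SIA1 (0.0065), MGAT4D (0.040) and FUT9 (0.0091), averaging probe sets ST6GALNAC5 (-0.12) and array weights GALNT15 (-0.13). Over the fits without 1 array the ranges crossed 0 for MGAT1 (-0.021 to 0.063), GALNT15 (-0.099 to 0.085), ST3GAL5 (-0.051 to 0.026), B3GALT6 (-0.077 to 0.039), FUT7 (-0.10 to 0.0082), ST8SIA1 (-0.091 to 0.013), MGAT4D (-0.079 to 0.028), B3GNT4 (-0.096 to 0.036), FUT3 (-0.10 to 0.018), ST6GAL2 (-0.13 to 0.018), GCNT2 (-0.10 to 0.011), FUT9 (-0.097 to 0.0022) and ST6GALNAC1 (-0.17 to 0.0051). Levels under the array median could not be set against a background signal.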
